A study of Mus musculus with 9 samples.

Results

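The 42 genes described here are interferon-stimulated genes, taken by name from a list of known members of the interferon response, out of 55401 genes in each of the deposited tables. The list was chosen with earlier results of these data known. All 42 names were present once in the tables, and 39, 39 and 38 of them passed the filter on low values in the 3 comparisons made. The cells were H9M cells, a mouse model of acute myeloid leukemia in which lineage-negative bone marrow of C57BL/6-Ly5.1 mice, whose cells carry CD45.1, was transduced with a gammaretroviral vector for *Hoxa9*, *Meis1* and puromycin resistance. Each clone also carried a lentiviral color code with the surface tag EGFRt, and all groups shared these alterations. Clones were mixed and transplanted with helper bone marrow into lethally irradiated C57Bl6/J mice, and CD45.1+, EGFRt bright, cKit+, CD11b dim or negative splenocytes were sorted by color code.

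Mouse #15, sacrificed before leukemia developed, gave the whole pre-leukemic group, with 1 library each of clone 33BC-D, clone 38BC-D and clone 43BC-D. The de novo expanded group held these same clones at the leukemic endpoint, 38BC-D from mouse #13, 43BC-D from mouse #14 and 33BC-D from mouse #17. Clone 34BC-D, taken from those 3 endpoint mice, made up the stably expanded group, which is therefore 1 clone. Each group therefore had 3 libraries, each of 1 clone from 1 mouse. All pre-leukemic libraries came from a single mouse, and what belongs to this mouse, to the time of sacrifice and to the group cannot be told apart. Clone 34BC-D is in no other group. In comparisons with the stably expanded group, what belongs to this clone and to the group therefore cannot be told apart either. The tables tie a column to its group but not to a clone or mouse, so library numbers 1 to 3 only tell the libraries of a group apart.

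Interferons are secreted cytokines that cells release after sensing viral nucleic acids. Type I interferons bind the receptor *Ifnar1*/*Ifnar2*, whose kinases *Jak1* and *Tyk2* phosphorylate *Stat2*, which joins *Irf9* in the complex ISGF3 that binds interferon-stimulated response elements in promoters. Interferon gamma acts through *Ifngr1* and *Ifngr2* and on gamma-activated sites in promoters. The products sense foreign RNA, block viral entry and replication, and restrain the signal, and interferon is also known to drive hematopoietic stem cells into cycle.

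Each library held from 10379739 to 15551196 reads on genes. The levels per library given below are normalized counts, that is recovered whole reads divided by size factors set over all 9 libraries. *Kit*, *Itgam*, *Ptprc* and the vector genes *Hoxa9* and *Meis1* had reads in every library. De novo expanded library 3 stood apart from the other libraries of its group, with 218137 normalized counts of the myeloid granule gene *Mpo* against 22355 and 36037, and 873 of the myeloid regulator *Irf8* against 5343 and 5850.2. *Mpo* was at 85053.9 to 95650.5 in the pre-leukemic and 101104 to 123617 in the stably expanded libraries. De novo expanded libraries 1 and 2 thus also lay outside these ranges, below them, and library 3 above. *Irf8* was at 4263 to 7606 and at 1690 to 3469 in these groups. The counts that involve the de novo expanded group are therefore also given without its library 3, as are the values of several members.

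To show what the members share in sequence, the 250 bases upstream of their start sites were searched for the core of the interferon-stimulated response element, spelled GAAANNGAAA, on both strands. RefSeq promoters (GRCm38.p6) matched 33 of the 42 members. The core was found in 13 of these 33, or 39.4%, against 936 of 27025 genes, or 3.46%, over all promoters of this length. Of the other interferon-stimulated genes listed for comparison, 27 of 53, or 50.9%, held it. A gamma-activated site, spelled TTCNNNGAA and palindromic in its fixed letters, was found in 9 of the 33 members, or 27.3%, against 8.13% of all promoters. These matches describe letters and not bound sites, and the members were chosen as known interferon targets.

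Stretches of 30 bases with the first core, 10 bases on either side of it, are shown for 8 members, since they cover members that were lower in leukemic cells as well as members that were not. They are written 5′ to 3′ on the strand of the gene with the core, and any further core that overlaps or follows it, in capitals.
*Gbp2* (chr3:142620594-142620623, plus strand): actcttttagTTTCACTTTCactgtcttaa
*Rsad2* (chr12:26456553-26456582, minus strand): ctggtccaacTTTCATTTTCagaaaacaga
*Bst2* (chr8:71537583-71537612, minus strand): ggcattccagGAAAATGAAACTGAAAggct
*Isg15* (chr4:156200877-156200906, minus strand): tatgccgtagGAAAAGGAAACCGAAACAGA
*Oas3* (chr5:120777715-120777744, minus strand): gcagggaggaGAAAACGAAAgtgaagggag
*Stat2* (chr10:128270266-128270295, plus strand): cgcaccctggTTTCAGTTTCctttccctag
*Igtp* (chr11:58199512-58199541, plus strand): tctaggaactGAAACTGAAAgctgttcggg
*Irgm2* (chr11:58214903-58214932, plus strand): tccaggaactGAAACTGAAAgctgttcggg
In *Isg15*, 3 cores overlapped, and in *Bst2* there were 2. The stretches of *Igtp* and *Irgm2*, neighboring paralogs, were nearly the same, so they are not separate examples of the motif.

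The whole 250 bases are shown for 3 members on which the results below turn, which are *Rsad2*, with 1 core, and *Ifitm3* and *Ifit2*, with none in these windows.
*Rsad2* (chr12:26456453-26456702, minus strand): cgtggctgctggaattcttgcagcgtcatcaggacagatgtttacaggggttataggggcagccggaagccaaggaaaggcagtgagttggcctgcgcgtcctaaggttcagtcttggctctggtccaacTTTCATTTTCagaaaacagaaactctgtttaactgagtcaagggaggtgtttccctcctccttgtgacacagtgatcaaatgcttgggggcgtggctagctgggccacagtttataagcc
*Ifitm3* (chr7:141010745-141010994, minus strand): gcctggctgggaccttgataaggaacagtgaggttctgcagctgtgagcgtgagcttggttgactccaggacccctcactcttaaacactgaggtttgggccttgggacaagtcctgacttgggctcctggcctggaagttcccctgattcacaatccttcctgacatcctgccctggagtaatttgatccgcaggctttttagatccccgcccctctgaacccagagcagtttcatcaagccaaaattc
*Ifit2* (chr19:34550444-34550693, plus strand): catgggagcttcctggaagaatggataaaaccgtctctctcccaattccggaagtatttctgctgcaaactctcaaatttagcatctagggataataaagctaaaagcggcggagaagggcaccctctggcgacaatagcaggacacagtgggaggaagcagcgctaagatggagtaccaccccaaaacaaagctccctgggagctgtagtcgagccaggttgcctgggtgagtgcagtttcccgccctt
The core of *Rsad2* began 120 bases and that of *Gbp2* 59 bases before the RefSeq start. Another RefSeq start of *Ifit2* also had no core in its window.

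Compared per kilobase of gene length and averaged over the 9 libraries, the level of the members spanned from near 0 to 388 normalized counts per kilobase. The highest were the GTPase *Gbp3* with 388, the ubiquitin ligase *Dtx3l* with 306, the ubiquitin ligase *Trim25* with 229, the RNA editing enzyme *Adar* with 228, the transcription factor *Irf1* with 225 and the virus tether *Bst2* with 224. The lowest were *Ifi47* with 0.289, *Ifi44* with 0.343, *Ifit3* with 0.992 and *Ifit1* with 4.21, all of which are classic, strongly inducible genes. *Ifit3*, *Ifi44* and *Ifi47* did not reach the filter in any comparison, and *Ifit1* did not reach it between the leukemic groups.

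The main question asked of these data was whether interferon-stimulated genes differed between pre-leukemic clones and the clones that had expanded. Most members were lower in leukemic than in pre-leukemic cells, and the size of the difference varied among them. In 9 of the 38 members tested in every comparison, each of the 6 leukemic libraries lay below each of the 3 pre-leukemic libraries, and in 0 members each lay above. Over all genes, 5.36% lay below and 5.38% above in this way. Because the members were chosen with earlier results of these data known, shares set beside those of all genes describe the list and do not test it. The 9 members were the transcription factors *Irf1*, *Irf7* and *Irf9*, the dynamin-like GTPase genes *Mx1* and *Mx2*, the antiviral enzyme *Rsad2*, *Adar*, the ADP-ribosyltransferase *Parp14* and *Gbp2*.

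**Figure D1:**
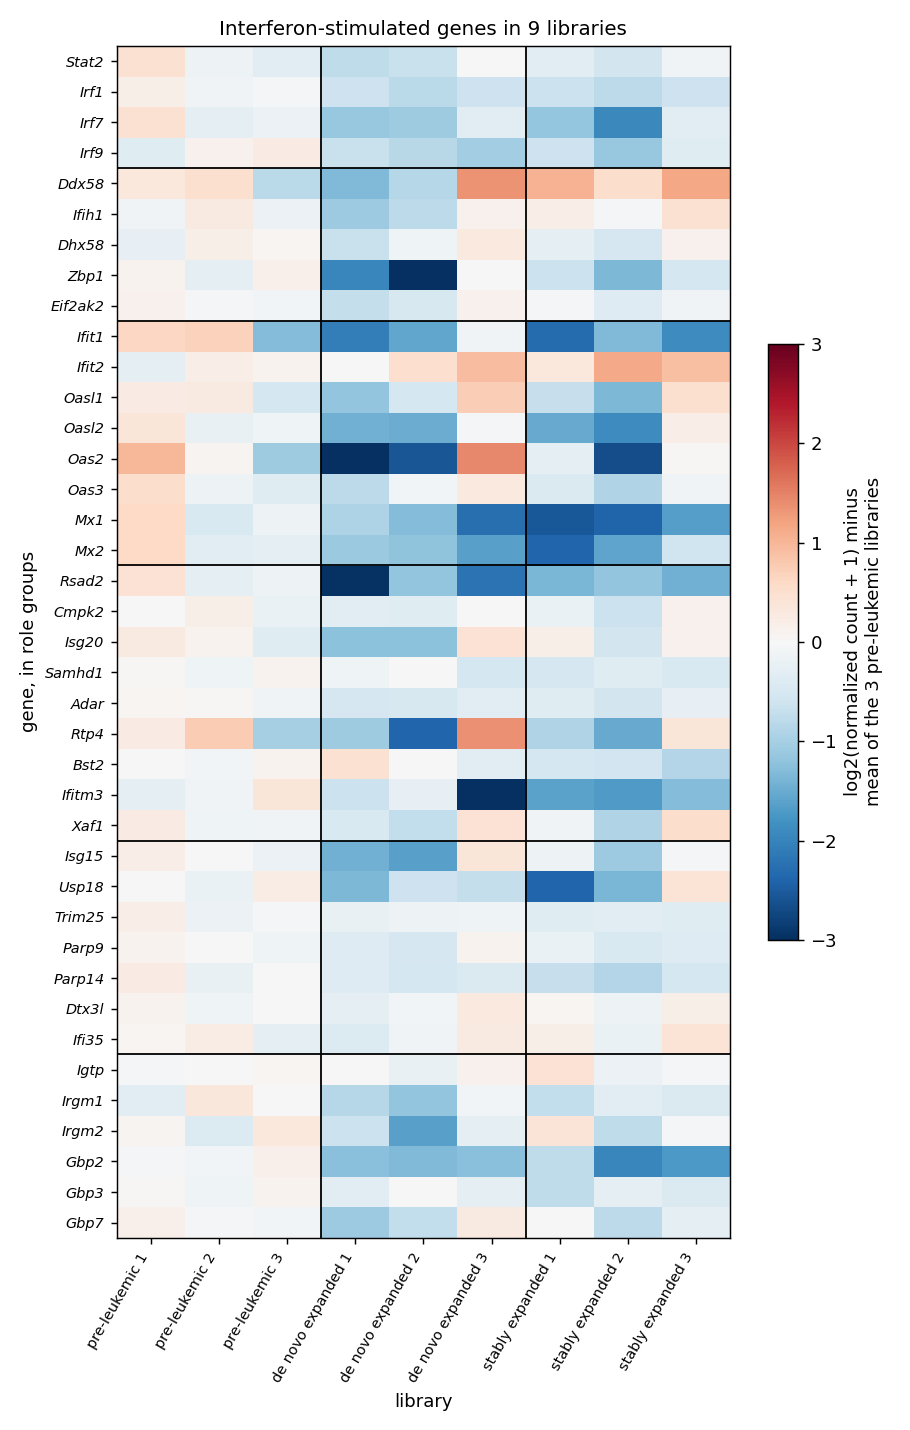
Color map of the 39 members that passed the filter on low values (rows, grouped by role) in the 9 libraries (columns), as log2(normalized count + 1) minus the mean of the 3 pre-leukemic libraries, with colors ending at 3 in either direction. De novo expanded libraries 1 and 2 and stably expanded library 2 are mostly blue, that is below the pre-leukemic mean, while de novo expanded library 3 holds red and blue rows.

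Between de novo expanded and pre-leukemic clones, 37 of the 39 tested members had a negative log2 fold change and 2 a positive one, with a median of -0.50 against 0.01 over all 14195 genes tested. Differences were tested two-sided with limma on log2(normalized count + 1) with Benjamini-Hochberg adjustment over all genes tested, and calls required both an adjusted p-value below 0.05 and at least 2-fold change. By this test 0 members were called, as were 0% of all genes. At an unadjusted p-value under 0.05, 10 members were lower and 0 higher, against 5.26% of all genes lower and 5.99% higher. The groups did not overlap in 10 members, all lower, against 8.5% of all genes lower and 10.6% higher. The lowest adjusted p-value of a member was 0.279, for *Gbp2*. With edgeR 0 members were called, as were 0 of all 14195 genes. DESeq2, run on 41164 genes without this filter, called 1 member, again *Gbp2*, and 23 of all genes higher and 19 lower. With a prior on fold changes DESeq2 called 0 members, and 17 of all genes higher and 10 lower.

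Without de novo expanded library 3, 5 members were called lower, while 1.5% of all genes were called. These were *Zbp1*, *Oas2*, *Oasl2*, *Gbp2* and *Irf7*, with log2 fold changes of -2.56, -2.90, -1.44, -1.26 and -1.08 and adjusted p-values of 0.00973, 0.0144, 0.0230, 0.0172 and 0.0416 in limma. The median of the members was then -0.73, and at an unadjusted p-value under 0.05, 27 members were lower and 0 higher, against 10.7% and 11.1% of all genes. Among the members whose value moved without this library were *Isg15*, at -1.52 ± 0.50 in place of -0.88 ± 0.59 on the log2 scale, *Ddx58*, at -1.07 ± 0.36 in place of -0.26 ± 0.69 and *Mx1*, at -1.10 ± 0.32 in place of -1.48 ± 0.41, none of them called. Others moved little, such as *Irf1* with -0.70, *Irf9* with -0.73, *Mx2* with -1.15, *Rsad2* with -2.07 and *Usp18* with -0.97, while *Stat2* was at -0.69. *Zbp1* and *Oas2* were named after these values were seen.

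Between stably expanded and pre-leukemic clones, 33 of 39 tested members had a negative and 6 a positive log2 fold change, with a median of -0.48 against 0.00 over all 13968 genes tested. Here 4 members were called, all lower, which were *Mx1*, *Ifitm3*, *Gbp2* and *Rsad2*, while 2.75% of all genes were called in either direction. Without the fold limit, 9 members passed the adjusted threshold, all lower, against 3.61% of all genes. The further 5 were *Irf1*, *Parp14*, *Samhd1*, *Gbp3* and *Adar*. At an unadjusted p-value under 0.05, 18 members were lower and 2 higher, against 12.3% and 13.2% of all genes. The groups did not overlap in 18 members that were lower and 2 that were higher, against 14.6% and 16.1% of all genes. The 2 higher members were the RNA sensor *Ddx58* and the RNA-binding protein gene *Ifit2*. The 4 calls depended on the libraries and the fit, since without any 1 pre-leukemic library *Gbp2* and *Rsad2* were not called. In 1 fit of all 9 libraries none of the 4 passed, with adjusted p-values from 0.0768 to 0.207 in limma. That fit called 4 of all 13968 genes higher and 5 lower, against 168 and 216 in the main test. Both comparisons with the pre-leukemic group share its 3 libraries, so their values are not independent of each other.

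In bulk samples, fewer cells of a type and less RNA per cell cannot be told apart, and markers of other cell types moved with these groups. Of the B cell list, 5 of 9 tested genes were called lower in stably expanded than in pre-leukemic clones. Of all genes, 2.75% were called in this comparison in either direction. The summed level of the 10 B cell genes was 3113 to 3841 normalized counts in the pre-leukemic, 1080 to 3145 in the de novo expanded and 1223 to 1530 in stably expanded libraries. *Ighm* made up most of this sum, while *Cd79a* and *Ms4a1* had at most 42 reads in any library. *Cd79b* went the other way in stably expanded clones, with a log2 fold change of 0.99 and an adjusted p-value of 0.0796 in limma. Of the neutrophil list, 4 of 7 tested genes were called higher in stably expanded clones, with sums of 2451 to 3015, 2015 to 7715 and 7332 to 58950. *Mmp8* went the other way, at 20.0, 15.8 and 16.6 normalized counts in the pre-leukemic and 3.62, 6.43 and 18.8 in stably expanded libraries. *Mmp9* and *Retnlg* of this list had at most 11 reads in any library. The 10 macrophage markers summed to 2994 to 4024, 1595 to 3546 and 2941 to 3601, with 1 gene, *Csf1r*, called lower in stably expanded clones. *Adgre1*, *Vcam1* and *Csf1r* made up most of this sum, and C1qa, C1qb and C1qc had no more than 13 reads in any library. Of the 5 tested macrophage genes, 3 were lower and 2 higher in stably expanded clones, with log2 fold changes from -1.89 to 2.03. *Vcam1* was at 1389, 168 and 186 normalized counts in the pre-leukemic and at 1956, 1421 and 1078 in stably expanded libraries. The 8 erythroid markers summed to 335 to 773, 46.0 to 275 and 67.2 to 435. The 10 T and NK cell markers summed to no more than 44.7 in any library. Of the 8 plasmacytoid dendritic cell markers, which summed to 1513 to 1893, 1650 to 2651 and 1330 to 1878, *Runx2* and *Tcf4* made up nearly all of the sum, and each of the other 6, *Siglech* among them, had at most 17 reads in any library. No marker was at 0 in every library, and the part of these cells in the results on the members was not tested.

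**Figure D2:**
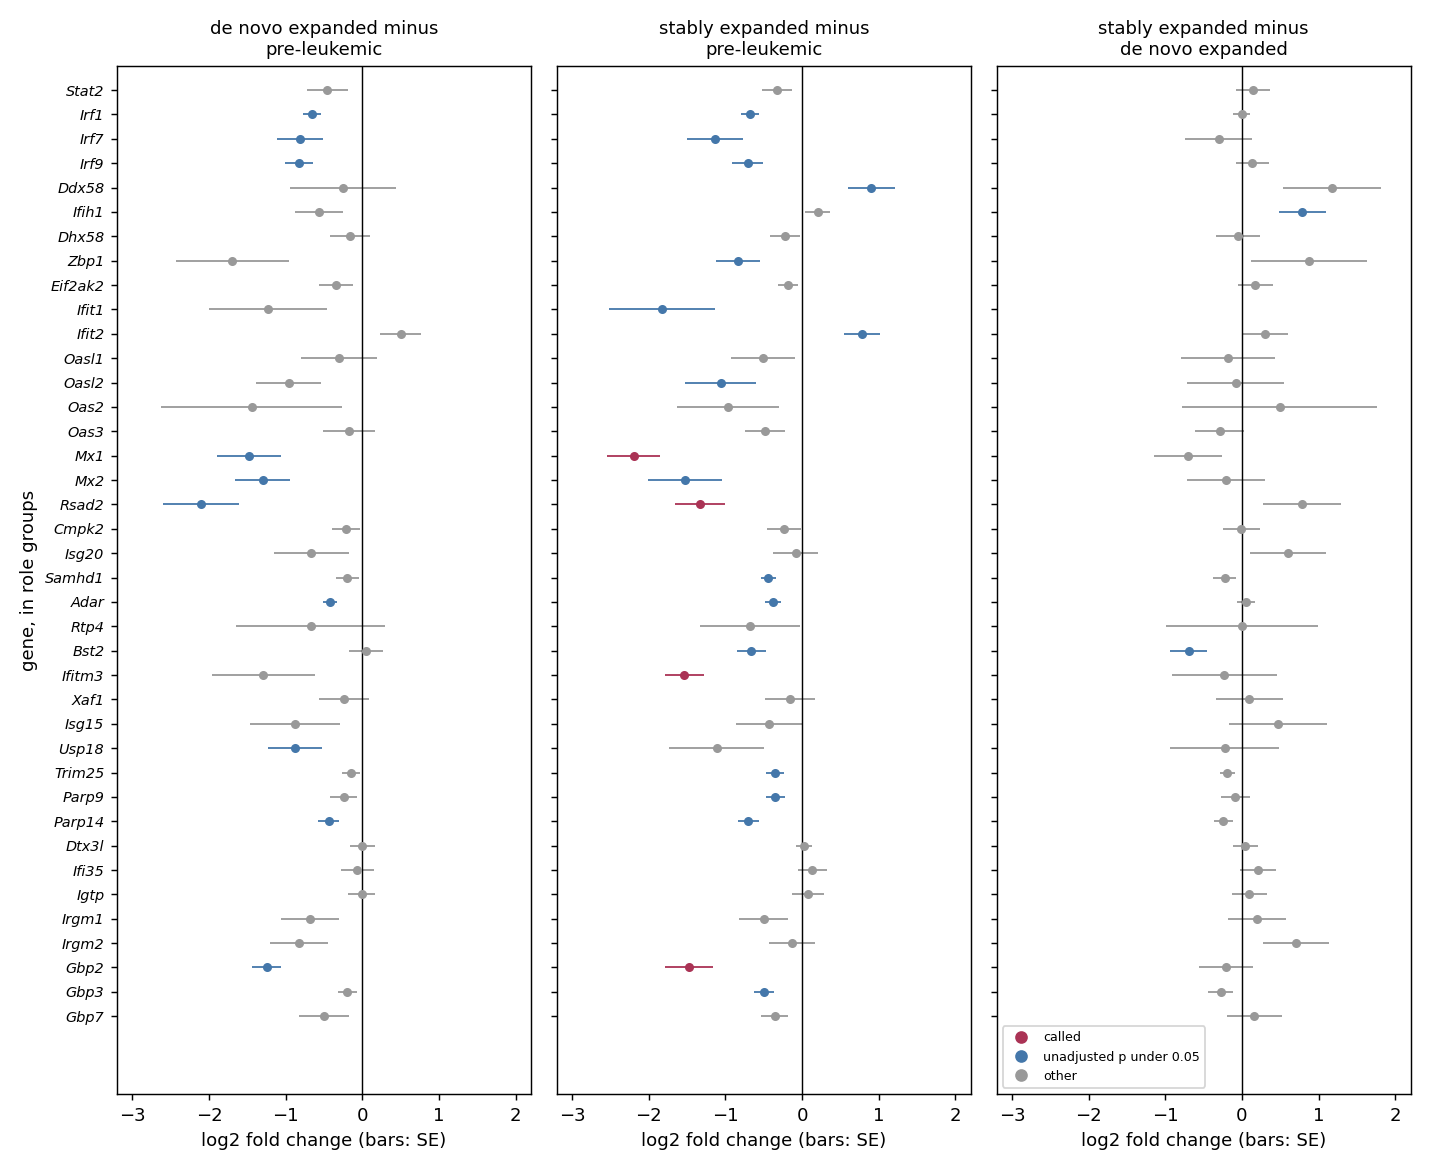
Log2 fold change of each tested member, grouped by role, in the 3 comparisons, with bars for the SE of the limma fit on 3 libraries a group. Points lie mostly left of 0 in the comparisons with the pre-leukemic group, where 37 and 33 of 39 are negative, and on both sides of 0 between the leukemic groups, where 18 of 38 are negative. The called members are *Mx1*, *Ifitm3*, *Gbp2* and *Rsad2*, in the middle panel.

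Among the transcription factors, which turn the interferon signal into transcription, all 4 members were lower in both leukemic groups, with 3 of 4 at an unadjusted p-value under 0.05 in each comparison and 0 called. Over all genes, 48.98% were lower in de novo and 49.46% in stably expanded clones, and 5.26% and 12.3% were lower at this unadjusted p-value. These shares of all genes also stand beside the counts of the other role groups below. *Irf1*, a transcription factor induced strongly by interferon gamma, was at 1333, 1098 and 1151 normalized counts in pre-leukemic libraries 1 to 3, at 772, 683 and 777 in the de novo expanded and at 761, 695 and 772 in stably expanded libraries. The leukemic groups lay on top of each other and well below the pre-leukemic group, with no overlap. The log2 fold change was -0.66 ± 0.12 (SE, n = 3) in de novo expanded clones and -0.68 ± 0.11 in stably expanded clones, with adjusted p-values of 0.320 and 0.00837 in limma, so only the latter passed, and by less than the 2-fold limit. Between the leukemic groups it was -0.00, with a 95% interval from -0.27 to 0.26.

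*Irf7*, the amplifier of type I interferon production, was at 298, 181 and 193 normalized counts in the pre-leukemic, 99.1, 104 and 176 in the de novo expanded and 96.8, 56.0 and 176 in stably expanded libraries. The groups did not overlap, but library 3 of each leukemic group came close to the lowest pre-leukemic value. The log2 fold changes of -0.82 ± 0.30 and -1.14 ± 0.37 had adjusted p-values of 0.417 and 0.0803 in limma. *Irf9*, the DNA-binding subunit of ISGF3, was at 749, 1048 and 1137, at 609, 539 and 467, and at 622, 437 and 748 normalized counts in the same order. The highest stably expanded library thus nearly reached the lowest pre-leukemic one. Its log2 fold changes were -0.83 ± 0.18 and -0.71 ± 0.20, with adjusted p-values of 0.347 and 0.0568 in limma. *Stat2*, the partner of *Irf9*, overlapped between groups, at 1015, 665 and 589, at 435, 464 and 734, and at 588, 499 and 681 normalized counts, with log2 fold changes of -0.45 ± 0.27 and -0.33 ± 0.19. The annotated span of *Irf7* overlaps *Phrf1* on the other strand and that of *Irf9* overlaps *Rnf31* on the same strand, so reads could have been split between them in counting.

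Between stably expanded and pre-leukemic clones, the RNA and nucleic acid sensors had the median closest to no change of the role groups, -0.18 on the log2 scale. Of the 5 members 3 were lower and 2 higher, so this median lay between opposite changes. *Ddx58* was at 0.90 and *Zbp1* at -0.83 on the log2 scale, each without overlap between these groups. *Ddx58*, which encodes the RNA sensor RIG-I, was at 230.1, 259.6 and 105 normalized counts in the pre-leukemic, 72.9, 102 and 473 in the de novo expanded and 380.0, 266 and 411 in stably expanded libraries. All stably expanded libraries were above all pre-leukemic ones, while the de novo expanded group held the 2 lowest values and the highest value of the 9 libraries. The log2 fold change between stably expanded and pre-leukemic clones was 0.90 ± 0.31, with an adjusted p-value of 0.0967 in limma. *Ifih1*, which encodes the RNA sensor MDA5, was at 443, 567 and 422, at 222, 274 and 515, and at 546, 460.0 and 647 normalized counts. De novo expanded libraries 1 and 2 were again lowest and library 3 lay among the others. *Zbp1*, a sensor of Z-form nucleic acids that triggers cell death, was at 122, 94.0 and 126, at 28.5, 11.3 and 115, and at 72.4, 44.1 and 77.9 normalized counts. It was lower than in every pre-leukemic library in all stably expanded libraries and in de novo expanded libraries 1 and 2. The helicase gene *Dhx58* and the kinase gene *Eif2ak2*, whose product PKR halts translation, overlapped between all groups, with log2 fold changes between -0.34 and -0.15 against the pre-leukemic group.

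The IFIT, OAS and MX effectors had the largest median difference of the role groups in either comparison with pre-leukemic clones, -1.10 for de novo and -1.01 for stably expanded clones over 8 tested members, of which 7 were lower in each. *Mx1*, a gene of the dynamin-like GTPase family, was at 248, 119 and 148 normalized counts in the pre-leukemic, 85.5, 65.4 and 33.4 in the de novo expanded and 27.1, 30.3 and 51.0 in stably expanded libraries. Every leukemic library was below every pre-leukemic library, and unlike most members de novo expanded library 3 was the lowest of its group. *Mx1* was 4.59-fold lower in stably expanded clones, with a 95% interval of the log2 fold change from -2.97 to -1.43 and an adjusted p-value of 0.00741 in limma. Its log2 fold change in de novo expanded clones was -1.48 ± 0.41, with an adjusted p-value of 0.380 in limma. Its neighbor *Mx2* was at 99.8, 52.1 and 54.5, at 29.6, 27.9 and 20.7, and at 11.8, 21.1 and 43.0 normalized counts. The groups did not overlap, with log2 fold changes of -1.30 ± 0.36 and -1.53 ± 0.48, and neither passed the adjusted threshold.

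In the 2′-5′ oligoadenylate synthetase family, whose products activate RNase L or, for the OAS-like members, act on RNA sensing, single libraries were high for some members but not for *Oas3*, which was at 349.9, 219 and 190.2, at 141, 231 and 298, and at 181, 129 and 226 normalized counts. *Oas2* was at 346, 185 and 82.2 normalized counts in the pre-leukemic libraries, at 17.1, 28.8 and 478 in de novo expanded libraries and at 144, 26.6 and 179 in stably expanded libraries. De novo expanded library 3 was 20.8-fold above the mean of the other libraries of its group and was the highest of all 9. *Oasl2* was at 164, 109.8 and 116, at 46.7, 45.3 and 125, and at 44.3, 34.0 and 148 normalized counts. In each leukemic group libraries 1 and 2 lay below all pre-leukemic libraries and library 3 lay among them. Its log2 fold changes were -0.96 ± 0.42 and -1.06 ± 0.46, with adjusted p-values of 0.449 and 0.182 in limma.

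The IFIT genes, whose products bind viral RNA ends, did not move together. *Ifit1* was low, at 27.3, 28.8 and 6.46 normalized counts in the pre-leukemic, 3.42, 5.23 and 16.2 in the de novo expanded and 2.71, 6.43 and 4.03 in stably expanded libraries. Its stably expanded libraries lay below the pre-leukemic ones by a narrow margin, with a log2 fold change of -1.83 ± 0.69 and an adjusted p-value of 0.126 in limma. *Ifit2* was at 128, 179.6 and 169.9, at 159.5, 222 and 300.3, and at 196, 345 and 295 normalized counts. Its stably expanded libraries were all above the pre-leukemic ones, and its log2 fold change was positive in both comparisons with the pre-leukemic group. The log2 fold changes of *Ifit2* were 0.50 ± 0.27 and 0.78 ± 0.23, with adjusted p-values of 0.521 and 0.0660 in limma, and it was called higher, at 1.02, when stably expanded library 1 was left out.

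Among the other antiviral effectors, all 9 tested members were lower in stably expanded than in pre-leukemic clones, 2 of them called, and 8 of 9 were lower in de novo expanded clones. Over all genes, 49.46% were lower in stably and 48.98% in de novo expanded clones. In stably expanded clones 2.75% of all genes were called in either direction. *Rsad2*, which encodes viperin, an enzyme that makes a chain-terminating nucleotide, was at 106, 64.2 and 71.1 normalized counts in the pre-leukemic, 9.12, 34.0 and 16.2 in the de novo expanded and 29.9, 34.0 and 28.2 in stably expanded libraries. All leukemic libraries were below all pre-leukemic libraries. *Rsad2* was lower by 1.33 ± 0.32 on the log2 scale in stably expanded clones, or 2.52-fold, with an adjusted p-value of 0.0318 in limma. *Rsad2* was 4.30-fold lower in de novo expanded clones, with a wider 95% interval of the log2 fold change, from -3.26 to -0.95, and an adjusted p-value of 0.360 in limma. Its neighbor *Cmpk2*, which feeds the same reaction with nucleotides, was at 219.6, 246 and 190.2, at 176, 168 and 216, and at 189, 139 and 239 normalized counts. These ranges overlapped in all groups.

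*Ifitm3*, a membrane protein that blocks viral entry, was at 147, 163 and 228 normalized counts in the pre-leukemic, 112, 148 and 20.7 in the de novo expanded and 57.0, 53.3 and 71.2 in stably expanded libraries. The stably expanded libraries were close to each other and below all pre-leukemic ones, whereas de novo expanded library 3 was the lowest of all 9 and library 2 lay within the pre-leukemic range. *Ifitm3* was lower by 1.54 ± 0.25 on the log2 scale in stably expanded clones, or 2.90-fold, with an adjusted p-value of 0.00834 in limma. For de novo expanded clones the log2 fold change was -1.29 ± 0.67 with library 3 and -0.43 without it, with adjusted p-values of 0.507 and 0.348 in limma. *Bst2*, which tethers budding virions, was at 223, 213 and 242, at 309, 223 and 178, and at 157, 151 and 122 normalized counts. Only the stably expanded libraries lay apart, below all others, with log2 fold changes of -0.66 ± 0.18 against pre-leukemic and -0.69 ± 0.24 against de novo expanded clones, and adjusted p-values of 0.0523 and 0.891 in limma.

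Of the abundant members of this group, *Samhd1*, which degrades nucleotides, and *Adar*, which edits double-stranded RNA, differed by little. *Samhd1* was at 1701, 1524 and 1792, at 1537, 1661 and 1163, and at 1175, 1306 and 1213 normalized counts, and *Adar* was at 2299.8, 2279 and 2066, at 1554, 1593 and 1745, and at 1733, 1502 and 1868. Both passed the adjusted threshold in stably expanded clones, below the fold limit, with log2 fold changes of -0.44 ± 0.10 and -0.38 ± 0.10 and adjusted p-values of 0.0270 and 0.0485 in limma. The nuclease gene *Isg20*, the chaperone gene *Rtp4* and the apoptosis gene *Xaf1* overlapped between all groups, and in each of them de novo expanded library 3 was the highest of its group, at 118, 46.9 and 181 normalized counts against at most 36.6, 7.98 and 96.9.

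The regulators of ISG15 conjugation and of ADP-ribosylation were lower by a median log2 fold change of -0.24 and -0.35 in de novo and stably expanded clones. *Isg15*, the ubiquitin-like modifier, was at 30.5, 26.1 and 23.1 normalized counts in the pre-leukemic, 9.12, 7.85 and 34.3 in the de novo expanded and 23.5, 11.9 and 25.5 in stably expanded libraries. Only 3 libraries, de novo expanded 1 and 2 and stably expanded 2, were clearly below the pre-leukemic values, and the log2 fold changes of -0.88 ± 0.59 and -0.43 ± 0.44 did not pass the test, nor did the former without de novo expanded library 3, where it was -1.52. *Usp18*, the protease that removes ISG15 and dampens receptor signaling, was at 42.0, 36.3 and 48.9, at 16.0, 27.0 and 25.3, and at 7.24, 15.6 and 56.4 normalized counts. Stably expanded library 3 was the highest of the 9, and the other leukemic libraries were below all pre-leukemic ones. *Parp14*, an ADP-ribosyltransferase, was at 1623, 1174 and 1353, at 1043, 944 and 1012, and at 847, 742 and 952 normalized counts, with no overlap. Its log2 fold change of -0.70 ± 0.14 in stably expanded clones had an adjusted p-value of 0.0151 in limma and stayed below the fold limit.

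*Trim25*, a ubiquitin ligase that acts in RIG-I signaling, was at 1707, 1313 and 1432, at 1272, 1322 and 1349, and at 1138, 1179 and 1143 normalized counts, so its stably expanded libraries lay below all others. *Dtx3l* and *Ifi35* overlapped in all groups, with log2 fold changes between -0.06 and 0.13 against the pre-leukemic group. *Parp9* and *Dtx3l* share a promoter region and overlap on opposite strands, and the strand setting used in counting was not given in the sources used here, so their reads may not be fully separate.

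The IRG and GBP families are GTPases that attack pathogen vacuoles and are induced above all by interferon gamma. All 6 tested members were lower in de novo expanded and 5 of 6 in stably expanded clones. *Gbp2* was at 159.7, 156 and 184 normalized counts in the pre-leukemic, 69.5, 66.3 and 69.4 in the de novo expanded and 97.7, 42.2 and 49.7 in stably expanded libraries. The de novo expanded libraries were nearly equal, library 3 included, and all leukemic libraries were below all pre-leukemic ones. *Gbp2* was lower by 1.48 ± 0.31 on the log2 scale in stably expanded clones, or 2.78-fold, with an adjusted p-value of 0.0206 in limma. Its log2 fold change in de novo expanded clones was -1.25 ± 0.19, with an adjusted p-value of 0.279 in limma.

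*Gbp3*, the most abundant member per kilobase, was at 1506, 1344 and 1574, at 1166, 1460.2 and 1191, and at 862, 1213 and 1086 normalized counts. Only the stably expanded libraries were all below the pre-leukemic ones, with a log2 fold change of -0.49 ± 0.13 and an adjusted p-value of 0.0463 in limma. *Gbp7* was at 767, 666 and 652, at 326, 413 and 841, and at 682, 404 and 575, with de novo expanded library 3 as the highest of the 9. *Irgm1* ranged from 46.2 to 73.5, from 25.3 to 55.0 and from 34.4 to 45.9 in the 3 groups, *Irgm2* from 114 to 187, from 47.9 to 124 and from 88.1 to 197, and *Igtp* from 148 to 161, from 133 to 169.6 and from 137 to 208. *Igtp* overlaps *Irgm2* on the same strand, and the GBP and IRG genes have close paralogs, so reads could have been divided among them.

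**Figure D3:**
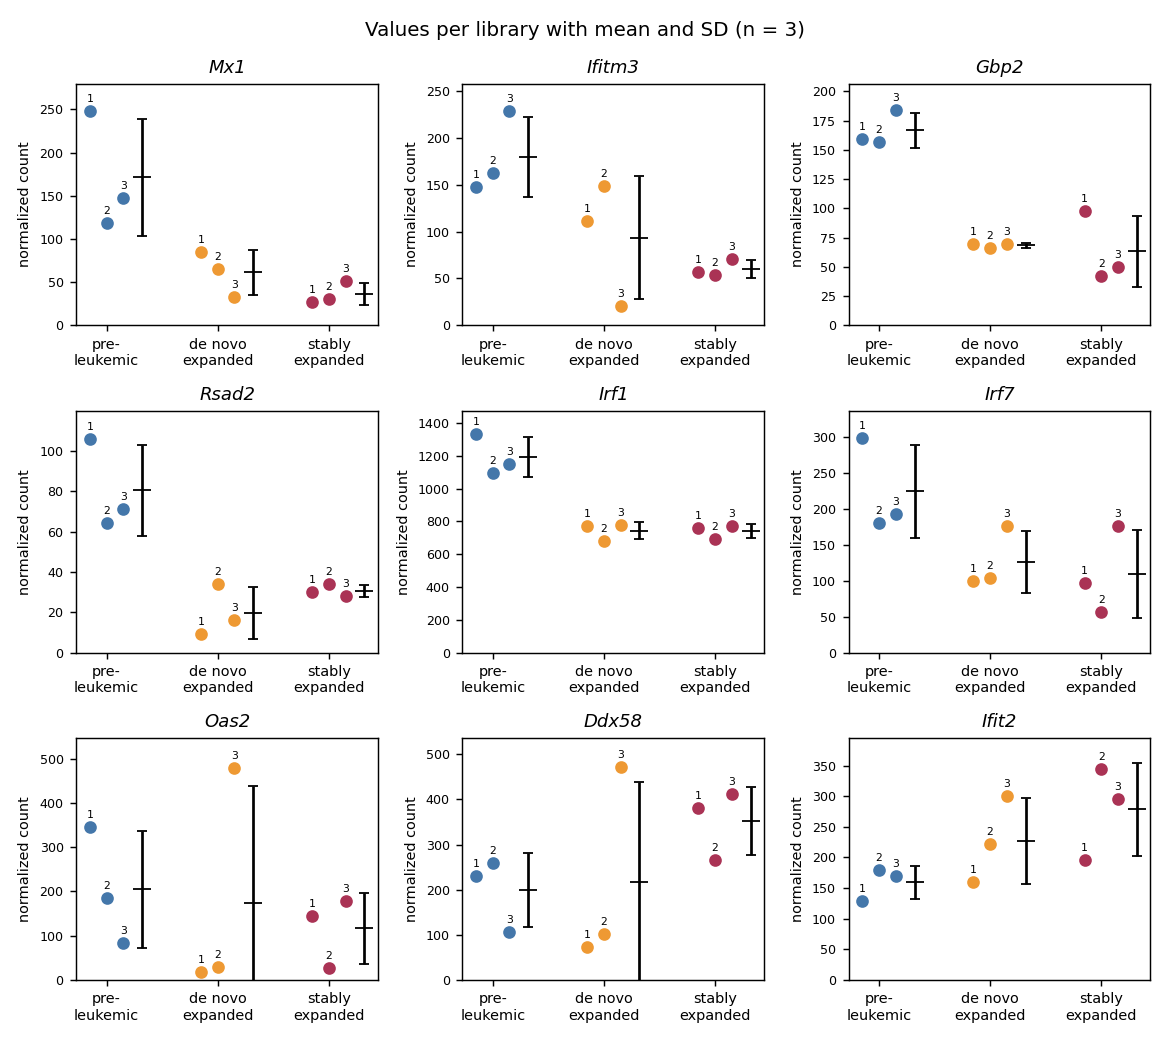
Normalized counts of 9 members in each library (points, numbered 1 to 3 within a group) with mean and SD of the group beside them (black, n = 3, lower bars end at 0 where the SD passes it). *Mx1*, *Gbp2*, *Rsad2*, *Irf1* and *Irf7* lie below the pre-leukemic values in all 6 leukemic libraries, *Oas2* and *Ddx58* have 1 high de novo expanded library, and *Ifit2* is highest in the stably expanded group.

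Stably and de novo expanded clones were compared to ask whether members separate the kinds of leukemic clone. Of 38 tested members, 18 had a negative and 20 a positive log2 fold change, with a median of 0.02 against -0.00 over all 13758 genes. With limma 0 members were called, and 0.00727% of all genes, that is 1 gene, were called. With edgeR and with DESeq2, with or without a prior on fold changes, 0 members were called as well. Over all genes, edgeR called 1 of 13758 higher and 0 lower. DESeq2 called 12 of 37490 higher and 17 lower without the prior, and 8 higher and 8 lower with it. At an unadjusted p-value under 0.05, 1 member was lower, *Bst2*, and 1 was higher, *Ifih1*, against 2.11% and 2.72% of all genes. The groups did not overlap in 2 members, *Bst2* and *Trim25*, both lower, against 4.95% of all genes lower and 4.66% higher.

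The intervals of these differences were wide for many members. For *Mx1* the 95% interval of the log2 fold change ran from -1.73 to 0.32, for *Ifitm3* from -1.83 to 1.37, for *Rsad2* from -0.40 to 1.98, for *Irf7* from -1.33 to 0.72 and for *Oas2* from -2.48 to 3.47. They were narrow for *Adar*, from -0.21 to 0.33, and for *Parp14*, from -0.54 to 0.05. Without de novo expanded library 3, 2 sensors were called higher in stably expanded clones, *Ddx58* with a log2 fold change of 1.99 ± 0.26 and an adjusted p-value of 0.00320 and *Ifih1* with 1.14 ± 0.19 and 0.00932 in limma, while 3.69% of all genes were called. At an unadjusted p-value under 0.05, 4 members were then lower and 9 higher, against 8.83% and 11.6% of all genes, and 12 of 37 tested members had a negative log2 fold change.

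Members also varied among the libraries of a group, and more so in the leukemic groups. The libraries of each leukemic group came from 3 mice and the pre-leukemic ones from 1. A difference in spread between mice and between groups therefore cannot be told apart. Taken over the 38 members tested in every comparison, the median log2 distance from the mean of the pre-leukemic libraries was -0.74, -0.70 and -0.01 in de novo expanded libraries 1 to 3 and -0.40, -0.77 and -0.11 in stably expanded libraries 1 to 3. Over all genes these medians lay between -0.01 and 0.03. In de novo expanded libraries 1 and 2 and stably expanded library 2, respectively 34, 28 and 34 of the 38 members were below the lowest pre-leukemic value. Over all genes 34.88%, 29.76% and 31.1% were below it in these libraries. In de novo expanded library 3, 14 members were below it and 14 above the highest pre-leukemic value, near the 31.3% and 35.0% of all genes.

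De novo expanded library 3 was the highest of its group in 27 of 38 members, against 40.1% of all genes, and lay at least 2-fold above both others in 9 members, against 5.27% of all genes. These 9 were *Ddx58*, *Zbp1*, *Oas2*, *Oasl1*, *Oasl2*, *Isg15*, *Isg20*, *Rtp4* and *Gbp7*. At the same time *Mx1*, *Mx2*, *Ifitm3*, *Irf9*, *Samhd1* and *Bst2* were lowest in this library. Stably expanded library 3 was the highest of its group in 24 of 38 members, against 36.3% of all genes, and lay at least 2-fold above both others in *Oasl1*, *Oasl2*, *Rtp4* and *Usp18*. Over all genes, 1.86% lay at least 2-fold above both others in this library. The median SD of the members on the log2 scale was 0.23 in the pre-leukemic, 0.46 in the de novo expanded and 0.36 in the stably expanded group, against 0.19, 0.27 and 0.22 over all genes.

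**Figure D4:**
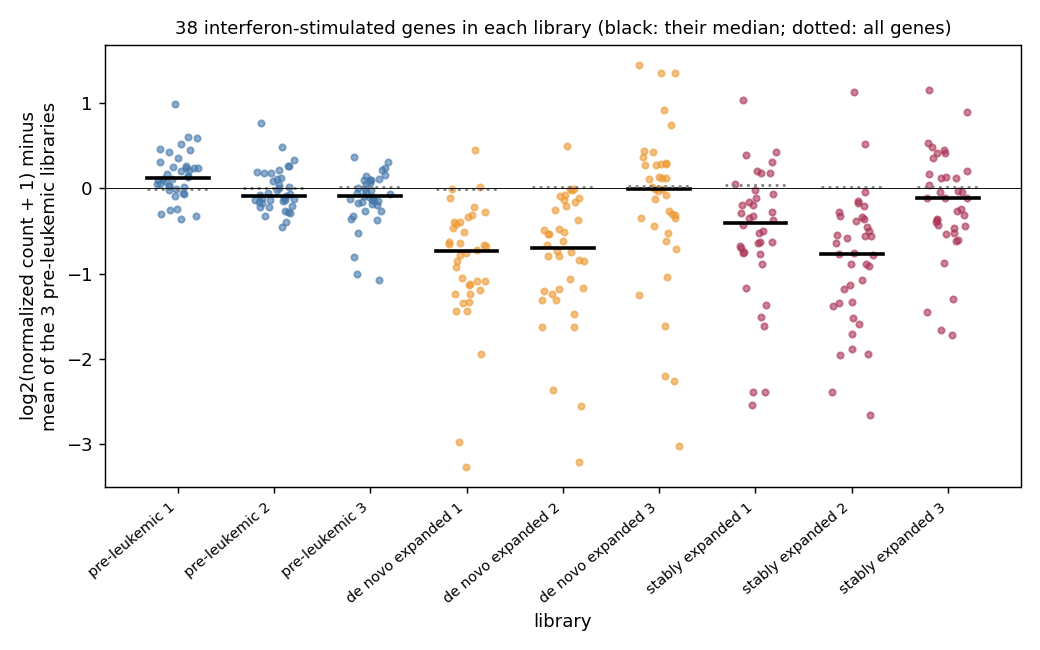
Each point is 1 of 38 members in 1 of the 9 libraries, as log2(normalized count + 1) minus the mean of the pre-leukemic libraries, with the median of the members as a black line and that of all genes as a dotted line. The medians of the members are -0.74 and -0.70 in de novo expanded libraries 1 and 2 and -0.77 in stably expanded library 2, while de novo expanded library 3 is at -0.01 with the widest spread.

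The rest of the pathway was followed in lists of genes that are not members. Of 21 interferon genes, 16 had any read, 17 had at most 3 reads in every library, and 0 passed the filter. *Ifnb1*, the first type I interferon made by most cells, had 1 read in all libraries together.

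Of 10 genes of receptors and their signaling, 9 were tested and 0 called. The type I receptor chain *Ifnar1* was lower in stably expanded than in pre-leukemic clones, with a log2 fold change of -0.66 ± 0.11 and an adjusted p-value of 0.00877 in limma. The gamma receptor chain *Ifngr1* was higher, with a log2 fold change of 0.70 ± 0.12 and an adjusted p-value of 0.00864 in limma. *Ifnar1* was at 1698, 1501 and 1600.3 normalized counts in the pre-leukemic and at 918, 1146 and 979 in stably expanded libraries, and *Ifngr1* at 3067, 2911 and 3292 and at 4199, 5317 and 5651, without overlap in either gene.

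Of 16 genes that link nucleic acid sensing to interferon, 15 were tested and 1 was called, *Irf8*, a transcription factor of monocytes and dendritic cells. It was at 4263, 5989 and 7606 normalized counts in the pre-leukemic and at 1690.3, 3469 and 2002 in stably expanded libraries, without overlap. In stably expanded clones it was lower by 1.35 ± 0.25 on the log2 scale, with an adjusted p-value of 0.0126 in limma. Of 8 feedback inhibitors 1 was called, *Socs1*, which blocks the receptor kinases and is itself induced by interferon. It was at 118, 90.3 and 85.0, at 63.8, 54.0 and 29.8, and at 57.0, 42.2 and 41.6 normalized counts, below the pre-leukemic values in all leukemic libraries. In stably expanded clones it was lower by 1.04 ± 0.28 on the log2 scale, with an adjusted p-value of 0.0479 in limma. Over all genes, 2.75% were called between stably expanded and pre-leukemic clones, in either direction.

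A list of 69 further interferon-stimulated genes had medians of -0.40 in de novo expanded clones, with 47 of 52 tested genes lower, and -0.26 in stably expanded clones, with 35 of 51 lower. In stably expanded clones 5 of them were called, all lower, which were *Gbp5*, *Ifi203*, *Mndal*, *Slfn5* and *Ifi27l2a*. Over all genes, 48.98% were lower in de novo and 49.46% in stably expanded clones. In stably expanded clones 2.75% of all genes were called in either direction. *Gbp5*, a GTPase that promotes inflammasome assembly, was at 252, 169 and 327, at 133, 112 and 119, and at 56.1, 72.5 and 56.4 normalized counts. The 3 groups were stepwise apart without overlap, with log2 fold changes of -0.97 ± 0.26 in de novo and -1.96 ± 0.27 in stably expanded clones and adjusted p-values of 0.372 and 0.00455 in limma. *Ifi27l2a* was at 89.3, 44.7 and 68.3, at 19.4, 37.5 and 46.9, and at 0.905, 7.35 and 22.8 normalized counts. Its stably expanded libraries lay below all pre-leukemic ones, and its de novo expanded libraries overlapped both groups, with a log2 fold change of -3.18 in stably expanded clones and an adjusted p-value of 0.0329 in limma. By limma 0 of the pathway and further genes were called in de novo expanded clones or between the leukemic groups.

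Members whose window held the response element core and those whose window did not were on the same side of 0. The median log2 fold change for de novo expanded clones was -0.59 over 12 tested members with the core and -0.33 over 18 without it. In stably expanded clones it was -0.49 and -0.29. The 9 members without an entry in the promoter table, among them *Mx1*, *Mx2*, *Oas2*, *Usp18* and *Parp14*, had medians of -0.88 and -0.83. Of the called members, *Gbp2* and *Rsad2* held a core, *Ifitm3* did not, and *Mx1* had no entry.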

How the data were processed

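RNA-Seq of sorted, color-coded clones was analysed in 9 libraries, 3 per group. According to the study's methods, the nf-core/rnaseq pipeline was run with GENCODE genes of GRCm38.p6, and per the submitters' processing notes Trim Galore 0.6.4, STAR 2.6.1d, featureCounts 1.6.4 and DESeq2 were used. The values that the authors deposited in 3 tables, 1 per pairwise comparison, are a signal, that is read counts scaled with size factors that DESeq2 set among the 6 libraries in each table. The deposited tables also hold the authors' fold changes, test statistics and p-values, which were not used, and gene lengths, which were used per kilobase. Whole reads were recovered for at least 99.995% of nonzero values within 0.05 reads, and each library held equal reads in its 2 tables.

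Levels per library use size factors over all 9 libraries, whereas tests use the values as deposited. Tests were made with limma 3.58.1 (empirical Bayes trend, R 4.3.3) on log2(normalized count + 1), a scale that understates the change of low genes, for genes whose normalized counts averaged 10 or more in the 6 libraries. They were two-sided, with Benjamini-Hochberg adjustment over all genes tested and calls at an adjusted p-value under 0.05 and 2-fold. Recovered reads were tested with edgeR 4.0.16 and DESeq2 1.42.0 as alternatives, and edgeR was run on TMM-normalized libraries. The other alternatives were pseudocounts of 0.1 and 5, no filter or a filter of 50, quantile normalization, centring on the median, 1 fit of all 9 libraries, no fold limit and leaving out each library. The limma and edgeR fits were tested on simulated data. With 3 libraries a group, the smallest two-sided p of an exact permutation test is 0.1. The pre-leukemic libraries share 1 mouse and the stably expanded libraries share 1 clone. Each endpoint mouse gave 1 library to each leukemic group, and each de novo expanded clone was also in the pre-leukemic group. The tests took no account of this sharing, so p-values measure only the spread between these samples.

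The members and lists were chosen with earlier results of these data known. Genes are named with values if they were called, had 1 of the 3 smallest p-values in a direction, or are *Stat2*, *Irf1*, *Irf7*, *Irf9*, *Ifit1*, *Isg15*, *Oasl2*, *Mx1*, *Gbp2*, *Bst2* or *Ifitm3*. From the other lists, called genes and at most 2 per list and comparison are named. Library values of further members, such as *Mx2*, *Zbp1*, *Oas2*, *Usp18*, *Samhd1*, *Adar*, *Gbp3* and *Gbp7*, fall outside this rule and were added after their values were seen, as was the choice of sequences. The promoter table also holds bases after the start, and only the 250 bases upstream were searched, whereas the whole windows had been planned. Some genes are not reported here. Figures were made with Python 3.11.15 and matplotlib 3.10.9.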

Additional observations from a re-analysis of the deposited data

How the results depend on the processing

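The median of the members kept its sign in both comparisons with the pre-leukemic group under every alternative, and it ranged from -0.73 to -0.38 in de novo expanded and from -0.54 to -0.29 in stably expanded clones when single libraries were left out. Calls were less stable. In stably expanded against pre-leukemic clones the 4 calls became 9 without the fold limit, where 606 of all 13968 genes were called higher and 504 lower. They became 0 in 1 fit of all 9 libraries, where the lowest adjusted p-value of these genes was 0.0768 and that of *Ifitm3* 0.207 in limma. Calls over all genes dropped in that fit as well, to 4 higher and 5 lower, against 168 and 216 in the main test. Leaving out 1 library gave from 2 to 7 calls. Without any 1 of the pre-leukemic libraries only *Mx1* and *Ifitm3* were called. Over all genes, 150, 121 and 113 were called higher and 90, 85 and 106 lower without pre-leukemic library 1, 2 and 3. Without stably expanded library 3 there were 7 members called, with *Mx2*, *Irf7*, *Oasl2* and *Usp18* added and *Rsad2* lost. Of all 14020 genes, 171 were then called higher and 242 lower. *Rsad2* was also lost with DESeq2 and a prior. Without stably expanded library 1 *Ifit2* was called and *Rsad2* was not. Between de novo expanded and pre-leukemic clones DESeq2 without a prior called 1 member, while it called 23 of all 41164 genes higher and 19 lower. Leaving out 1 library gave from 0 to 5, with 5 without de novo expanded library 3, where 1.5% of all genes were called. Between the leukemic groups leaving out 1 library gave from 0 to 2, with 2 without de novo expanded library 3, where 3.69% of all genes were called. The 7 called pathway and further genes in stably expanded clones became 4 with a filter of 50, 4 with DESeq2 and a prior, 1 in the fit of all 9 libraries and 17 without the fold limit, and from 3 to 8 with 1 library left out, against from 0 to 5 in de novo expanded clones and from 0 to 3 between the leukemic groups.

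*Oasl2* changed sign between the leukemic groups, to 0.0373 with edgeR, 0.0408 with DESeq2 and 0.0182 with DESeq2 and a prior, and ranged from -0.71 to 0.395 with 1 library left out. Among the genes named by the rule, other signs turned when 1 library was left out. These were *Bst2* in de novo expanded against pre-leukemic clones, from -0.16 to 0.23, and, between the leukemic groups, *Gbp2* from -0.57 to 0.0262, *Ifitm3* from -1.09 to 0.30, *Irf1* from -0.0598 to 0.0436, *Irf7* from -0.72 to 0.10 and *Irf9* from -0.0356 to 0.35. Further members turned as well, such as *Oasl1* between the leukemic groups, to 0.35 without de novo expanded library 3. The causes were not tested. No paired analysis was possible because the columns carry no clone or mouse. *Ifit3*, *Ifi44* and *Ifi47* did not pass the filter, so a difference was not testable at this depth.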
